A study of Mus musculus with 23 samples.

Results

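The interferon-stimulated genes described here are 52 mouse genes, chosen by name, whose transcripts are known to rise when a cell senses interferon. A gene was followed where a probe of the array carries its RefSeq accession, which gave 49 of the 52 among 26512 genes in all. Ifi205, Mx1 and Rnf213 had no probe under this rule. The 49 genes fall into 11 groups by role: the IFIT proteins, the ISG15 system, the OAS family, sensors of cytosolic RNA and DNA, nucleotide and virus restriction factors, guanylate-binding proteins, immunity-related GTPases, the PARP, DTX3L and TRIM proteins, the Schlafen family, antigen processing, and 5 further interferon-induced genes.

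Bone marrow-derived macrophages (BMDM), which are macrophages grown from bone marrow cells with the growth factor M-CSF, came from male C57BL/6 mice of 10 to 14 weeks. The animals were wild-type (wt), lacked the kinase MK2 (MK2-/-) or lacked both MK2 and its relative MK3 (MK2/3-/-). MK2 and MK3, encoded by Mapkapk2 and Mapkapk3, are activated by the stress kinase p38. Cells of each genotype were left in medium or received 100 ng/ml lipopolysaccharide (LPS), the bacterial ligand of the receptor TLR4, for 120 min, and RNA was read on 23 one-colour arrays, 4 for each group except MK2-/- in medium with 3. The arrays of a genotype, medium and LPS together, lay on 1 slide of their own, so that genotype and slide cannot be told apart, while LPS and medium were compared within a slide. The replicates are labelled as separate samples, and the names of the deposited arrays carry a letter (a, b, c or e, replicates 1 to 4 in this order, except that the 3 MK2-/- medium arrays carry a, b and e), which is read here as the culture shared by a medium and an LPS array.

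TLR4 signals through the adaptor TRIF to the kinase TBK1 and the factor IRF3, which start transcription of the interferon-β gene Ifnb1. Secreted interferon binds its receptor, and the kinases JAK1 and TYK2 at the receptor then activate a complex that contains IRF9 and binds the interferon-stimulated response element (ISRE) before the start of many of the genes followed here. Some of these genes also respond to IRF3 or NF-κB without interferon, and the guanylate-binding proteins and immunity-related GTPases are further known as targets of interferon-γ through the site called GAS.

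The starts of these genes show what many of them share besides their response. Promoter windows of 300 bases, 250 before and 50 after the gene start (RefSeq, GRCm38.p6), were found for 41 of the 49 genes and not for Usp18, Oas2, Dhx58, Ifi204, Iigp1, Parp9, Parp14 and Tor3a. The core of the ISRE was searched on both strands as GAAA, any 2 bases and GAAA again, where copies may overlap, and a gene counted where any of its windows held it. It was present for 22 of the 41 genes (53.7%) against 1079 of 27025 genes (3.99%) in the whole table. The GAS letters TTCNNNGAA, where N is any base and which read the same on both strands, were present for 12 of the 41 (29.3%) against 9.55% of all genes. The 250 bases before the start are shown 5′ to 3′ on the gene's own strand for 6 genes, with the ISRE core in capitals on either strand: Rsad2, Ifit1, Isg15 and Gbp5, which had large LPS differences, Cmpk2, which neighbours Rsad2 and rose by a similar amount without this core in its window, and Oas3, which holds a core and had a small LPS difference in wt.
Rsad2, chr12:26456453-26456702, minus strand: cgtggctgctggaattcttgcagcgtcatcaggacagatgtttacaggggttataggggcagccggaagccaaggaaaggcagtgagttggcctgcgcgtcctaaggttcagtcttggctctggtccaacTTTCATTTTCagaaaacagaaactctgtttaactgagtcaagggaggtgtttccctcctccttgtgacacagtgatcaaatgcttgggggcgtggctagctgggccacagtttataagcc
Cmpk2, chr12:26468965-26469214, plus strand: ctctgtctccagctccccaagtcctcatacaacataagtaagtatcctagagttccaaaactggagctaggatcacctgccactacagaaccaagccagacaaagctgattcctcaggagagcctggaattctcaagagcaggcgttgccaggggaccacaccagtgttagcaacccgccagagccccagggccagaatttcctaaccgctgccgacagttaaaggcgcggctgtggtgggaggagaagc
Ifit1, chr19:34640639-34640888, plus strand: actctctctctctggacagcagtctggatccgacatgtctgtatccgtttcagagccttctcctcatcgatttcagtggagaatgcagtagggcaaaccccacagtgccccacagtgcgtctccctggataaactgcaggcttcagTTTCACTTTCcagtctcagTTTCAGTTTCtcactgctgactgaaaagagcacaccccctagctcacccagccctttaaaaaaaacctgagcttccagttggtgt
Isg15, chr4:156200819-156201068, minus strand: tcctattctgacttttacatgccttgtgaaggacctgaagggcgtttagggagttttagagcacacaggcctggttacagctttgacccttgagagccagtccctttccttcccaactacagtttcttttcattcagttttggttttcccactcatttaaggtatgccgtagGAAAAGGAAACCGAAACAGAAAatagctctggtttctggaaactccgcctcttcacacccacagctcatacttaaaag
Gbp5, chr3:142496684-142496933, plus strand: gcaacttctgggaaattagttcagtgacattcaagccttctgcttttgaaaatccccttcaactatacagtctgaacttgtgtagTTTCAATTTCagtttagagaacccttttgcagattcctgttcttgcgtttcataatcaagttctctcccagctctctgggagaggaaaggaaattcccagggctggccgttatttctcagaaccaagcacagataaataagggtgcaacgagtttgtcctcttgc
Oas3, chr5:120777660-120777909, minus strand: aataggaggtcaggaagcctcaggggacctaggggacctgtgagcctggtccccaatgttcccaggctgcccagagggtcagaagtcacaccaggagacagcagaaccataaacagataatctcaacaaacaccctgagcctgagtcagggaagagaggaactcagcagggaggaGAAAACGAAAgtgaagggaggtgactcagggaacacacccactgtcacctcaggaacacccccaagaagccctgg
The core began 120 bases before the start in Rsad2, 104 and 85 bases before it in Ifit1, 165 bases before it in Gbp5 and 75 bases before it in Oas3. Isg15 held 3 overlapping copies, at 78, 72 and 66 bases before its start. A match describes letters in a window and does not show that a factor binds there. The median LPS difference in wt was 2.80 log2 units (range −0.12 to 8.23) for the 22 genes with the core and 2.20 (0.27 to 6.19) for the 19 without. For the GAS letters it was 2.31 for the 12 genes with them and 2.79 for the 29 without. Many of the genes also lie side by side: 15 pairs, made of 25 of the 49 genes, have no other protein-coding gene between them in the RefSeq annotation, among them Rsad2 and Cmpk2, Ifit2 and Ifit3, Gbp5, Gbp7 and Gbp3, and Psmb9, Tap1 and Psmb8. Probes of close relatives (Ifit, Gbp, Oas, Slfn and Irgm genes) may bind each other's transcripts, so the values of such relatives need not be separate measurements.

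The arrays differed in the share of probes well above background, from 47.5% to 69.1%, with both extremes among the MK2/3-/- medium arrays (replicates 1 and 2). Of the 49 genes, 45 were above background on all 23 arrays and 48 on all 12 LPS arrays. Mapkapk2 was lower in both knockouts after LPS, by 2.81 log2 units in MK2-/- and by 3.01 in MK2/3-/-, and Mapkapk3 was lower in MK2/3-/- by 3.30, which is the direction the labels call for. After LPS Mapkapk2 read 14.19 to 15.37 in wt, 11.63 to 12.30 in MK2-/- and 11.54 to 12.26 in MK2/3-/-, still above background on all knockout arrays. All 6 macrophage markers with a probe (Adgre1, Csf1r, Itgam, Lyz2, Mertk and Fcgr1) were above background on all arrays. Their summed log2 level lay between 18.7 and 19.4 and was set largely by the brightest probe, Csf1r (18.3 to 18.7). Single markers varied more, Lyz2 from 15.7 to 17.8 and Mertk from 8.03 to 11.6. Other cell types were less evenly represented: the summed log2 level of the fibroblast markers Col1a1, Col1a2, Col3a1 and Pdgfra ran from 9.02 to 16.7 between arrays, the T cell marker Cd8a was above background on 0 of 23 arrays, and Siglech and Ly6d, markers of plasmacytoid dendritic cells, on 16 and 5.

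LPS raised most of the interferon-stimulated genes within 120 min in every genotype. Levels are log2 normalized intensities, differences are in log2 units, and a level compares arrays for 1 probe and not probes with each other. In wt, 36 of the 49 rose (limma over all genes, adjusted p under 0.05) against 8.16% of all genes. In MK2-/-, 37 of the 49 rose against 8.41% of all genes. In MK2/3-/-, 43 of the 49 rose against 11.9% of all genes. None of the 49 fell in any genotype, whereas 8.78%, 9.98% and 12.8% of all genes fell in wt, MK2-/- and MK2/3-/-. At an unadjusted p under 0.05, 42, 39 and 45 of the 49 rose, while 26.7%, 28.8% and 34.4% of all genes differed in either direction. The median difference over the 49 genes was 2.70 log2 units in wt, 2.87 in MK2-/- and 2.93 in MK2/3-/-, beside 0.01, −0.01 and −0.02 over all genes. The same 36 genes rose in all 3 genotypes, a count that was not taken over all genes. Eif2ak2 rose in both knockouts, and Oasl2, Oas1a, Oas3, Trim30a, Tap1 and Ifi44 passed the adjustment in MK2/3-/- alone. Whether the last 7 genes respond differently between genotypes is a separate question, and no interaction passed the adjustment (given below with the genotypes). In a bulk sample a higher signal cannot be assigned to more responding cells or to more RNA per cell. The summed level of the conventional dendritic cell markers (Flt3, Zbtb46, Cd209a and Xcr1) also moved with LPS. It lay between 6.06 and 8.59 log2 units in medium and between 9.88 and 11.0 after LPS. After LPS this sum was set mainly by Zbtb46, which reached 10.9, while Flt3 and Cd209a reached at most 8.26 and 7.88. Cd209a was above background on 11 and Xcr1 on 1 of 23 arrays. The part of these markers in the results was not tested.

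**Figure D1:**
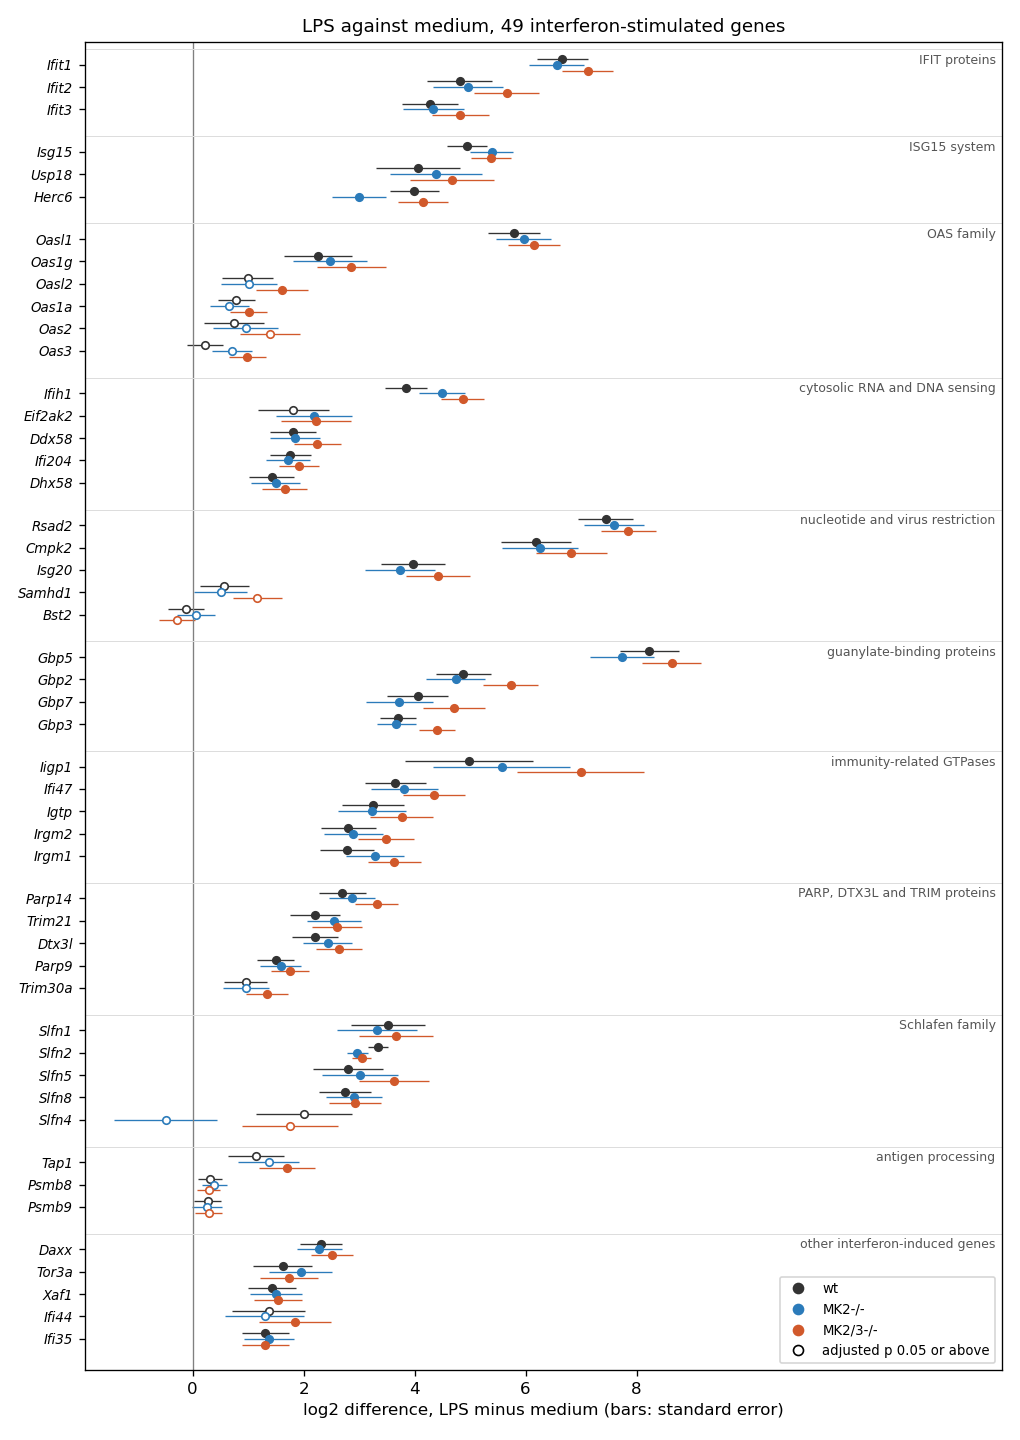
Differences between LPS and medium for the 49 interferon-stimulated genes, by role. The x axis is the log2 difference, points are the fitted differences in wt (black), MK2-/- (blue) and MK2/3-/- (orange), bars are standard errors, and open points have an adjusted p of 0.05 or above. The differences run from −0.12 to 8.23 in wt, with the IFIT proteins, guanylate-binding proteins, Rsad2 and Cmpk2 far to the right and Bst2, Psmb8 and Psmb9 near 0.

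The IFIT proteins, which bind viral RNA, rose as a whole in each genotype. Ifit1 read 9.01, 10.19, 9.77 and 7.93 log2 units in wt medium and 15.99, 16.50, 16.06 and 14.99 after LPS. Its MK2-/- arrays read 10.15, 9.56 and 8.81 in medium and 16.18, 16.47, 15.75 and 15.89 after LPS. Its MK2/3-/- arrays read 10.36, 9.69, 8.82 and 8.72 in medium and 16.79, 16.94, 16.40 and 15.96 after LPS. All LPS arrays lay above all medium arrays of their genotype, and the fitted rise was 6.66 ± 0.46 log2 units (SE), or 101-fold, in wt, 6.56 ± 0.50 in MK2-/- and 7.12 ± 0.46 in MK2/3-/-, with limma adjusted p-values of 2.9e-09, 1.1e-08 and 9.1e-10. Ifit2 rose by 4.81, 4.96 and 5.66 and Ifit3 by 4.28, 4.34 and 4.82 in the same order.

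For single genes an exact permutation test over the arrays (two-sided) was run beside limma, and the smallest p it can give here is 0.0286 for 4 arrays against 4 or against 3. Of the 11 genes with the largest wt difference in their role group, 10 reached this smallest p in each genotype, and Tap1 did not. These 11 genes were picked by the size of that difference, and the share over all genes was not taken. These p-values measure the spread between the arrays of a group.

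In the ISG15 system, the ubiquitin-like modifier Isg15, its protease Usp18 and the ligase Herc6 all rose. Isg15 read 9.42, 10.32, 10.21 and 9.09 log2 units in wt medium and 14.73, 15.23, 14.70 and 14.14 after LPS, a rise of 4.94 ± 0.36 or 30.7-fold. The MK2-/- arrays gave 10.14, 9.60 and 9.22 in medium and 15.19, 15.43, 14.83 and 14.71 after LPS, a rise of 5.39 ± 0.39. The MK2/3-/- arrays gave 10.88, 10.06, 9.31 and 9.35 in medium and 15.62, 15.71, 15.05 and 14.69 after LPS, a rise of 5.37 ± 0.36. The medium arrays spread over more than 1 log2 unit in wt and MK2/3-/-, and in no genotype did they reach the LPS arrays. Usp18 rose by 4.06, 4.39 and 4.68 log2 units in wt, MK2-/- and MK2/3-/-, and Herc6 by 4.00, 2.99 and 4.15. A second Herc6 probe, above background on all arrays, gave smaller LPS differences of 1.34, 1.70 and 1.99 in the same order.

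The OAS family, most of whose members make the second messenger that activates RNase L, was divided. Oasl1, a member without that enzyme activity, and Oas1g rose in all genotypes, whereas Oasl2, Oas1a and Oas3 passed the adjustment in MK2/3-/- and Oas2 in none. Oasl1 read 11.04, 12.25, 11.89 and 10.49 in wt medium and 17.22, 17.89, 17.35 and 16.37 after LPS, a difference of 5.79 ± 0.46 log2 units. The corresponding MK2-/- values were 11.91, 11.11 and 10.93 in medium and 17.63, 17.75, 16.86 and 16.90 after LPS (5.97 ± 0.50). For MK2/3-/- they were 11.87, 11.96, 10.35 and 10.58 in medium and 17.81, 18.02, 16.86 and 16.68 after LPS (6.15 ± 0.46). The 3 genotypes overlapped in medium and after LPS. The other members had wt differences between 0.22 (Oas3) and 2.26 (Oas1g), with Oasl2 at 0.99, Oas1a at 0.79 and Oas2 at 0.75 log2 units. A second Oas1g probe was above background on 1 of 23 arrays and gives no second estimate for this gene.

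Oas3 had the second-smallest wt difference of the 49 genes. It read 10.95, 11.10, 11.36 and 10.80 in wt medium and 10.92, 11.96, 11.81 and 10.41 after LPS, so the groups overlapped and the difference was 0.22 ± 0.33 (adjusted p = 0.77). Its 4 MK2/3-/- medium arrays read 11.42, 10.92, 10.57 and 10.68 and its LPS arrays 12.30, 12.50, 11.20 and 11.54, a difference of 0.99 ± 0.33 with a limma adjusted p of 0.034. The call was also lost with only the compared groups fitted and by the methods' t-test, and it was lost (adjusted p from 0.060 to 0.12) when replicate 1 or 2 of MK2/3-/- LPS or replicate 2, 3 or 4 of MK2/3-/- medium was left out.

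Among the sensors, all 5 rose in the knockouts and all but Eif2ak2 in wt. Ifih1, which encodes the RNA sensor MDA5, read 5.92, 6.52, 6.95 and 5.64 in wt medium and 9.92, 11.05, 10.11 and 9.32 after LPS (3.84 ± 0.38 log2 units). Levels in MK2-/- were 6.49, 6.30 and 5.97 in medium and 10.70, 11.18, 10.38 and 10.72 after LPS (4.49 ± 0.41). Levels in MK2/3-/- were 6.43, 5.78, 7.17 and 5.98 in medium and 11.48, 11.95, 10.75 and 10.65 after LPS (4.86 ± 0.38). After LPS the wt mean was the lowest of the 3, and the highest wt array exceeded the lowest arrays of both knockouts. Ddx58 (RIG-I) rose by 1.81, 1.85 and 2.25, the DNA sensor Ifi204 by 1.76, 1.72 and 1.92, and Dhx58 (LGP2), which modulates both RNA sensors, by 1.43, 1.50 and 1.66 log2 units. Eif2ak2, the kinase PKR that halts translation, differed by 1.82 ± 0.63 in wt (adjusted p = 0.057) and rose by 2.19 and 2.22 in the knockouts.

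The restriction factors held both some of the largest and the smallest differences. Rsad2, which encodes viperin, read 8.43, 10.11, 9.98 and 8.85 in wt medium and 16.68, 17.83, 17.07 and 15.56 after LPS, a rise of 7.44 ± 0.50 log2 units or 174-fold. Its MK2-/- arrays read 10.18, 9.13 and 8.85 in medium and 17.16, 17.64, 16.59 and 16.50 after LPS (7.59 ± 0.54). Its MK2/3-/- arrays read 10.69, 9.69, 9.38 and 9.01 in medium and 17.88, 18.08, 17.56 and 16.66 after LPS (7.85 ± 0.50). The neighbouring Cmpk2, a mitochondrial nucleotide kinase, rose by 6.19, 6.26 and 6.83 and the exonuclease Isg20 by 3.98, 3.74 and 4.42. Samhd1, which degrades deoxynucleotides, had 2 probes. The probe not used differed by −0.02, −0.16 and 0.38 log2 units in wt, MK2-/- and MK2/3-/-. The probe used differed by 0.57, 0.51 and 1.16 log2 units and passed the adjustment in no genotype. The MK2/3-/- difference was near the threshold (limma adjusted p = 0.062) and passed under several alternatives: with the culture as a block (limma adjusted p = 0.023), with the letter as a fixed block (0.0054), under the 75th percentile scaling (0.033), under normexp (0.033), with the filter on dim probes (0.038), and without replicate 4 of MK2/3-/- LPS (0.0086) or replicate 2 or 4 of wt LPS (0.048 and 0.046).

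Bst2, the tethering factor that holds virions at the cell surface, had the smallest wt difference. It read 14.56, 14.92, 16.12 and 15.15 in wt medium and 14.65, 14.95, 15.83 and 14.86 after LPS, and the difference was −0.12 ± 0.32 log2 units (limma adjusted p = 0.90). MK2-/- arrays read 13.80, 14.28 and 15.19 in medium and 14.16, 14.63, 14.70 and 14.44 after LPS. MK2/3-/- arrays read 15.08, 14.70, 15.08 and 14.80 in medium and 14.81, 14.74, 14.78 and 14.22 after LPS. Medium and LPS arrays overlapped in each genotype. Scaling the arrays to their 75th percentile turned the wt and MK2/3-/- differences to 0.25 and 0.15, so no direction can be given.

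The guanylate-binding proteins, which attack the vacuoles of intracellular pathogens, all rose and included the gene with the largest difference of the 49. Gbp5 read 7.01, 7.85, 7.56 and 6.71 in wt medium and 15.45, 16.61, 15.96 and 14.02 after LPS, a rise of 8.23 ± 0.54 log2 units or 300.1-fold. Gbp5 in MK2-/- read 8.96, 7.86 and 7.54 in medium and 15.93, 16.77, 15.29 and 15.46 after LPS (7.74 ± 0.58). Gbp5 in MK2/3-/- read 8.75, 8.10, 7.17 and 6.82 in medium and 16.60, 17.15, 16.10 and 15.51 after LPS (8.63 ± 0.54). No medium array came near an LPS array, and the LPS arrays of the 3 genotypes overlapped. Gbp2 rose by 4.88, 4.74 and 5.73, Gbp7 by 4.05, 3.73 and 4.72, and Gbp3 by 3.70, 3.67 and 4.40 log2 units in wt, MK2-/- and MK2/3-/-.

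All 5 immunity-related GTPases, which act on the same vacuoles, rose in each genotype. Iigp1 varied most between arrays: it read 2.14, 5.01, 4.03 and 2.01 in wt medium and 8.12, 11.05, 8.76 and 5.19 after LPS, a difference of 4.98 ± 1.15 log2 units. The MK2-/- levels were 4.71, 2.30 and 2.19 in medium and 9.17, 10.11, 7.80 and 7.47 after LPS (5.57 ± 1.24). The MK2/3-/- levels were 4.02, 3.86, 2.97 and 2.06 in medium and 11.25, 12.43, 9.90 and 7.30 after LPS (6.99 ± 1.15). The lowest wt LPS array was close to the highest wt medium array. The medium arrays on which this probe cleared the background numbered 2 of 4 in wt, 1 of 3 in MK2-/- and 1 of 4 in MK2/3-/-. A second Iigp1 probe gave smaller LPS differences, 0.67 in wt, 0.78 in MK2-/- and 1.96 in MK2/3-/-. Ifi47 rose by 3.65, 3.82 and 4.35, Igtp by 3.25, 3.23 and 3.76, Irgm2 by 2.80, 2.89 and 3.49, and Irgm1, which regulates the other members, by 2.79, 3.29 and 3.64 log2 units.

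In the PARP, DTX3L and TRIM group 4 genes rose in all genotypes and Trim30a in MK2/3-/-. Parp14, an ADP-ribosyltransferase, had 3 wt medium arrays, since the spot of replicate 1 was marked as an outlier and left out of the fit. They read 13.86, 13.06 and 12.54, and the wt LPS arrays read 15.58, 16.82, 16.12 and 14.90, a rise of 2.70 ± 0.42 log2 units. Its MK2-/- arrays read 13.72, 13.72 and 12.90 in medium and 16.40, 16.84, 16.11 and 15.92 after LPS (2.87 ± 0.42). Its MK2/3-/- arrays read 13.70, 13.43, 13.04 and 12.89 in medium and 16.73, 17.21, 16.54 and 15.84 after LPS (3.32 ± 0.39). Each LPS array exceeded every medium array. Trim21, an antibody receptor and ubiquitin ligase, rose by 2.21, 2.55 and 2.60, Dtx3l by 2.20, 2.43 and 2.64, and its partner Parp9 by 1.50, 1.58 and 1.75 log2 units. Trim30a differed by 0.95 in wt and 0.96 in MK2-/- and rose by 1.34 in MK2/3-/-.

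In the Schlafen family, whose members restrict growth of lymphoid and myeloid cells, 4 of 5 genes rose in each genotype. Slfn1 read 2.56, 1.91, 4.64 and 2.53 in wt medium and 5.77, 7.25, 7.61 and 5.11 after LPS (3.52 ± 0.67 log2 units). In MK2-/- it read 1.95, 1.96 and 3.23 in medium and 5.12, 6.24, 5.39 and 6.06 after LPS. None of these 3 medium arrays read it well above background, and the rise in MK2-/- was at least 4.43-fold. Slfn1 in MK2/3-/- read 3.41, 1.95, 4.18 and 2.75 in medium and 6.04, 8.16, 6.89 and 5.84 after LPS (3.66 ± 0.67). Slfn2 had the smallest spread of the family and rose by 3.34 ± 0.18, 2.97 ± 0.19 and 3.04 ± 0.18 log2 units, and Slfn5 rose by 2.80, 3.01 and 3.63 and Slfn8 by 2.74, 2.91 and 2.93. Slfn4 cleared the background on few arrays, which were 3 wt and 2 MK2/3-/- arrays after LPS (0 of 4 in MK2-/-) and 1 medium array of each knockout, and it passed the adjustment in no genotype.

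Antigen processing genes moved least. Tap1, a subunit of the peptide transporter, read 9.86, 10.39, 10.79 and 10.64 in wt medium and 11.77, 12.72, 11.55 and 10.22 after LPS, a difference of 1.15 ± 0.50 (limma adjusted p = 0.14). Tap1 in MK2-/- read 11.18, 10.37 and 10.40 in medium and 12.37, 12.79, 11.69 and 11.23 after LPS (1.37 ± 0.54, limma adjusted p = 0.093). Tap1 in MK2/3-/- read 10.69, 10.11, 10.64 and 10.56 in medium and 13.04, 13.26, 11.30 and 11.23 after LPS, a rise of 1.71 ± 0.50 (limma adjusted p = 0.016). The wt groups overlapped through replicate 4 after LPS, and the MK2/3-/- call was lost (adjusted p = 0.065 and 0.072) without replicate 1 or replicate 2 of the LPS group, with only the compared groups fitted (0.055), without the 2 MK2/3-/- medium arrays that stood apart in probes above background (0.087), and by the methods' t-test (0.095). In wt the difference grew to 1.60 with an adjusted p of 0.027 when replicate 4 after LPS was left out, and fell to 0.76 without replicate 2. The immunoproteasome subunits Psmb8 and Psmb9 differed by 0.26 to 0.39 log2 units in the 3 genotypes and passed in none.

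Of the further interferon-induced genes, Daxx, Tor3a, Xaf1 and Ifi35 rose in all genotypes and Ifi44 in MK2/3-/-. Daxx, a chaperone of histone H3.3, read 13.13, 13.47, 13.44 and 12.96 in wt medium and 15.61, 16.45, 15.84 and 14.36 after LPS (2.31 ± 0.37 log2 units). In MK2-/- it read 13.42, 13.37 and 13.26 in medium and 15.92, 16.26, 15.40 and 14.94 after LPS (2.28 ± 0.40), and in MK2/3-/- it read 13.70, 13.84, 13.33 and 13.48 in medium and 16.34, 16.73, 16.18 and 15.14 after LPS (2.51 ± 0.37). The medium arrays were tight in each genotype and all lay below the LPS arrays. Tor3a rose by 1.62, 1.95 and 1.74, Xaf1 by 1.43, 1.49 and 1.54, and Ifi35 by 1.31, 1.37 and 1.31 log2 units, and Ifi44 differed by 1.37 and 1.30 in wt and MK2-/- and rose by 1.84 in MK2/3-/-.

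**Figure D2:**
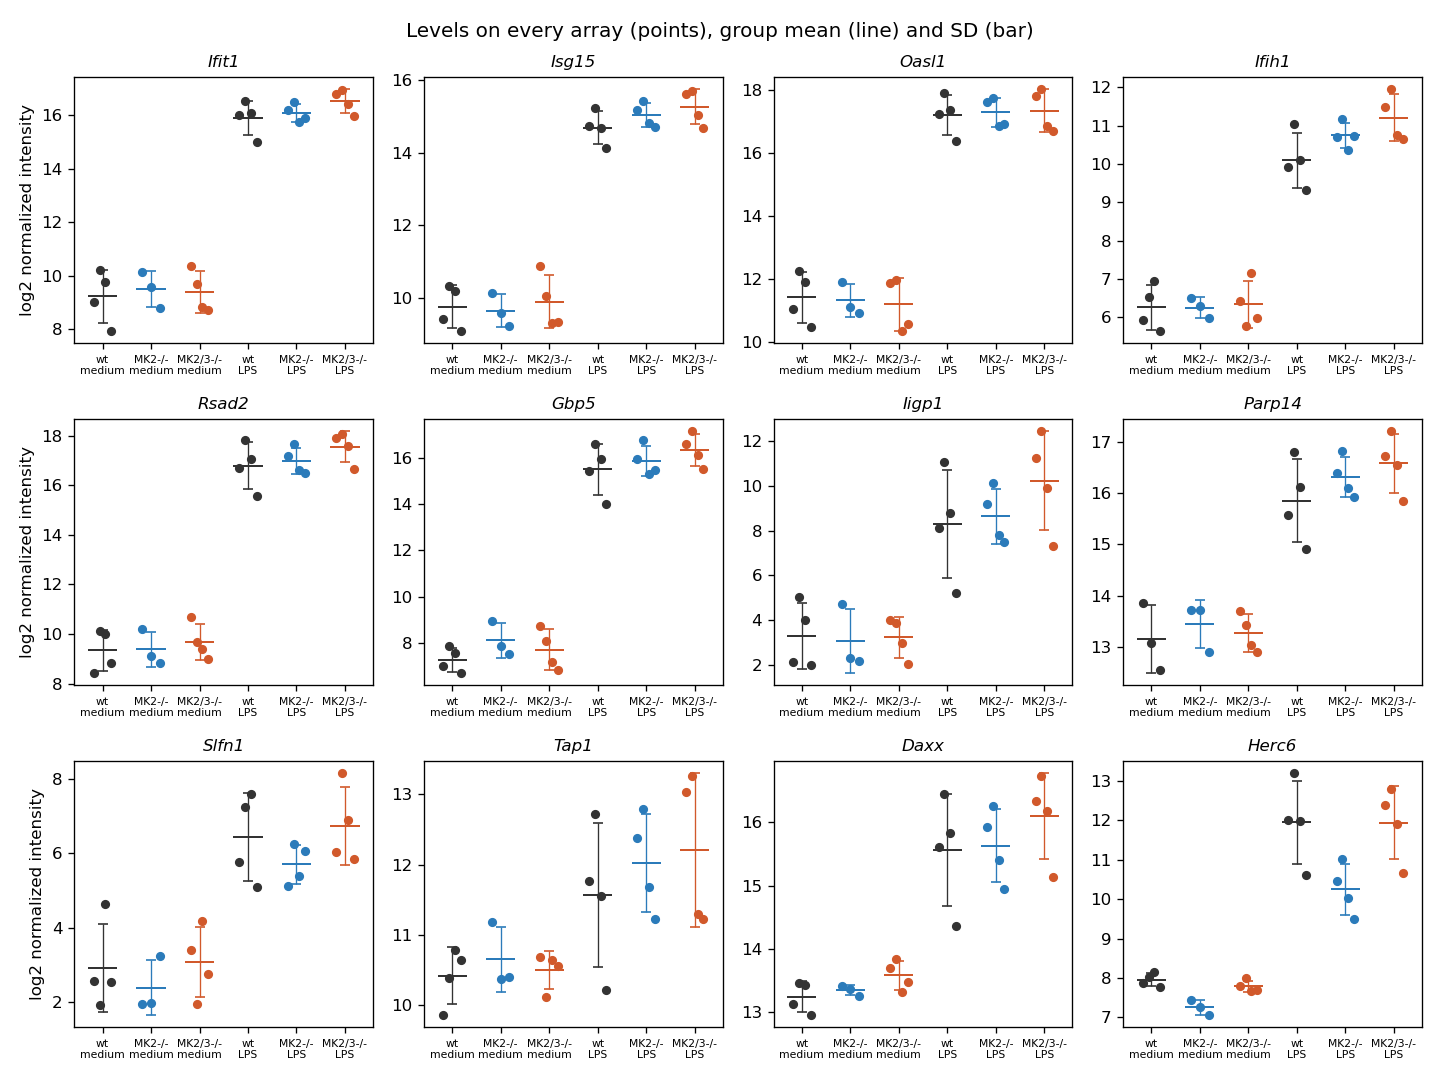
Levels of 12 interferon-stimulated genes on every array, the gene with the largest wt difference of each role group and Herc6. The y axes are log2 normalized intensities with a range of their own for each gene, points are single arrays of the groups named on the x axis, lines are group means and bars SDs. LPS arrays lie above medium arrays for all of these genes except Tap1 in wt. Herc6 has its lowest mean in MK2-/-, at 9.49 to 11.02 after LPS, which overlaps wt and MK2/3-/-. A second Herc6 probe, not drawn, did not show this.

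The response varied between cultures, and the same letters stood high or low in each genotype. On each array the median over the 49 genes was taken relative to the wt medium mean. After LPS it was 2.57, 3.62, 2.81 and 1.11 log2 units in wt, 2.92, 3.32, 2.60 and 2.31 in MK2-/- and 3.28, 4.06, 2.95 and 2.17 in MK2/3-/-, for cultures a, b, c and e. Culture b was the highest and culture e the lowest in each genotype. Gene by gene, the array of culture e was the lowest of its group for 47 of 49 genes in wt, 36 in MK2-/- and 47 in MK2/3-/-, and the array of culture b was the highest for 46, 45 and 47. Such counts were not taken over all genes, so they do not show whether the letters stand apart in these 49 alone. In medium the medians lay between −0.46 and 0.56, also lowest for e in each genotype.

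Taken within a culture, LPS minus medium was above 0 for 43 to 49 genes in each of 11 cultures with both arrays. The median of this difference was 1.81, 2.43 and 2.39 log2 units in the e cultures of wt, MK2-/- and MK2/3-/- and 3.23, 3.03 and 3.66 in the b cultures. In all, 40 of the 49 genes were higher with LPS in every one of the 11 cultures, and Parp14 was higher in the 10 where it was read on both arrays. The exceptions were Oas2, Oas3, Bst2, Samhd1, Slfn4, Psmb8, Psmb9 and Tap1, with Bst2 higher in 5 of 11 cultures. The shares of all genes that were higher with LPS in a culture or in every culture were not taken. The summed fibroblast markers also differed between cultures: after LPS they read 15.1, 15.0 and 15.6 log2 units in the e cultures of wt, MK2-/- and MK2/3-/- and 11.9, 10.5 and 10.8 in the b cultures, whereas the a cultures read 16.4, 11.3 and 9.75. Their part in the difference between cultures was not tested.

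**Figure D3:**
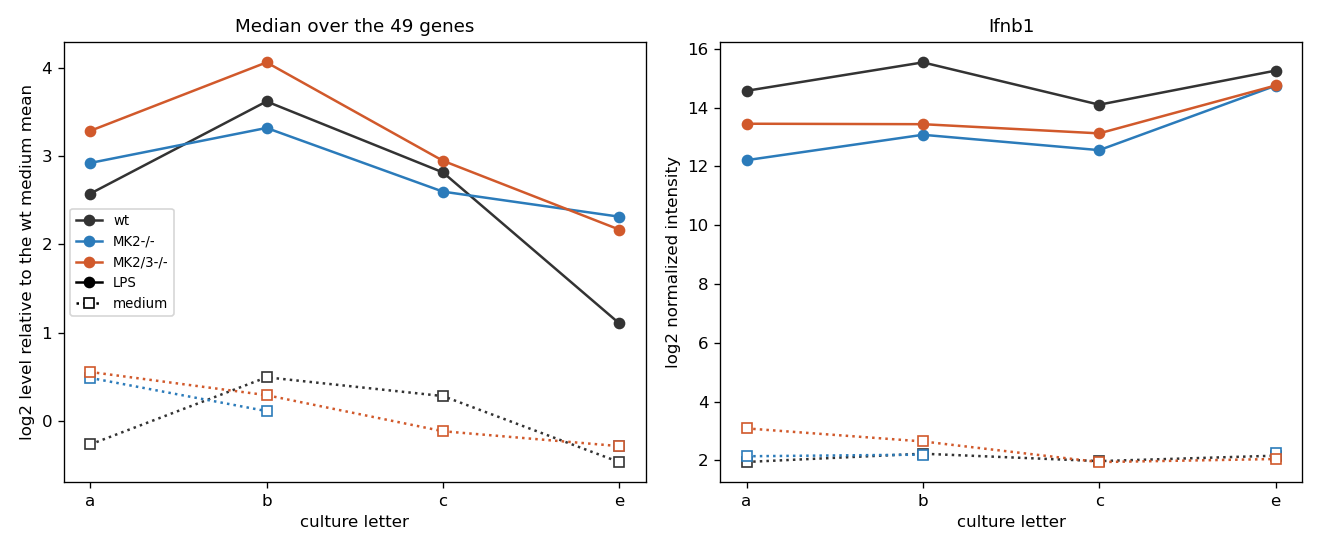
Median over the 49 interferon-stimulated genes (left, log2 level relative to the wt medium mean) and Ifnb1 (right, log2 normalized intensity) by culture letter. Filled circles are LPS arrays, open squares are medium arrays, colours are genotypes, and lines join arrays of one group without implying an order of the letters. The left panel peaks at culture b and falls to 1.11, 2.31 and 2.17 at culture e, while Ifnb1 at culture e is 15.26 in wt, 14.75 in MK2-/- and 14.76 in MK2/3-/-.

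After LPS, no member differed between the genotypes past the adjustment. In MK2-/- against wt, 0 of 49 passed against 0.0302% of all genes. An unadjusted p under 0.05 was found for 1 of the 49 and for 7.5% of all genes. In MK2/3-/- against wt, 0 of 49 passed against 1.64% of all genes. Here 4 of the 49 had an unadjusted p under 0.05, all higher in MK2/3-/-, beside 13.5% of all genes in either direction. In MK2/3-/- against MK2-/-, 0 of 49 passed against 0.158% of all genes. Of the 49, 1 had an unadjusted p under 0.05, beside 7.94% of all genes. The t-test named in the study's methods, run on the same values with Benjamini-Hochberg adjustment, also called 0 in each comparison. With all arrays the direction was mostly the same: 45 of 49 genes were higher in MK2/3-/- than in wt, with a median difference of 0.60 log2 units beside 0.01 over all genes, and 40 were higher in MK2-/- than in wt, with a median of 0.23. Both comparisons use the same wt arrays, and genes that respond together are not independent, so these counts describe the arrays and carry no test. The mean rose from wt through MK2-/- to MK2/3-/- for 39 of the 49 genes with all arrays.

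The culture letter mattered for the size of this lean. Between arrays of the same letter, MK2/3-/- exceeded wt for 49, 44, 34 and 45 genes in a, b, c and e, with medians of 0.92, 0.40, 0.24 and 0.85 log2 units. MK2-/- exceeded wt for 42, 20, 12 and 45 genes, with medians of 0.46, −0.04, −0.21 and 0.75. The lean of MK2-/- above wt was thus seen in cultures a and e and not in b and c. Counts between arrays of the same letter were not taken over all genes. Without the wt LPS array of culture e, replicate 4, 35 of 49 genes were higher in MK2/3-/- than in wt with a median of 0.17. In the same setting 8 of 49 were higher in MK2-/- than in wt with a median of −0.15. That removal kept the low e arrays of both knockouts, which shifts knockout minus wt downward. It therefore cannot show how much of the lean the array carried. The number of genes with an unadjusted p under 0.05 in MK2/3-/- against wt moved from 4 to 1 without replicate 4 of wt LPS. It moved to 19 without replicate 2 of wt LPS and to 15 without replicate 4 of MK2/3-/- LPS. It was 1 without replicate 2 of MK2/3-/- LPS and 2 without replicate 1 of either group. It was 23 with the letter as a fixed block and 0 by the methods' t-test, and 0 of 49 passed the adjustment in each of these settings. The share of all genes with such a p was 13.5% in the main fit and was not taken in these other settings.

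The genes with an unadjusted p under 0.05 in MK2/3-/- against wt were Ifih1, Gbp3, Trim30a and Gbp2. Ifih1 was higher by 1.1 ± 0.38 log2 units, with a limma adjusted p of 0.18 and an exact permutation p of 0.0857. Gbp3 read 14.15, 15.10, 14.42 and 13.61 in wt and 15.29, 15.86, 15.00 and 14.70 in MK2/3-/- after LPS, 0.89 ± 0.32 higher (limma adjusted p = 0.20). Trim30a was higher by 0.85 ± 0.38 and Gbp2 by 1.04 ± 0.49, which fell to 0.56 and 0.65 without replicate 4 of wt LPS. All 4 MK2/3-/- arrays exceeded the wt mean for Ifih1, Gbp3 and Trim30a and 3 of 4 for Gbp2, and the groups overlapped for each gene. The largest mean difference was that of Iigp1, 1.94 ± 1.15, within the spread of its arrays (exact permutation p = 0.286). A second Iigp1 probe gave 0.96.

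Herc6 in MK2-/- had the largest difference against the common direction. After LPS it read 12.02, 13.20, 11.98 and 10.61 in wt, 10.45, 11.02, 10.03 and 9.49 in MK2-/- and 12.39, 12.81, 11.90 and 10.67 in MK2/3-/-. The MK2-/- mean was 1.70 ± 0.45 log2 units below wt (limma adjusted p = 0.34, exact permutation p = 0.0571) and MK2/3-/- was 1.69 ± 0.45 above MK2-/- (limma adjusted p = 0.19). The latter passed limma's adjustment (adjusted p = 0.033) without replicate 4 of MK2/3-/- LPS and with the culture letter as a fixed block on all arrays (adjusted p = 0.035). In medium Herc6 read 7.87, 8.03, 8.15 and 7.77 in wt, 7.43, 7.27 and 7.06 in MK2-/- and 7.79, 7.99, 7.68 and 7.70 in MK2/3-/-, so that the MK2-/- arrays were the lowest there too. A second Herc6 probe did not show this: it read 9.17, 10.21, 8.95 and 8.52 in wt and 10.62, 10.77, 9.46 and 9.33 in MK2-/- after LPS, 0.83 higher in MK2-/-. The direction for this gene therefore depends on the probe.

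**Figure D4:**
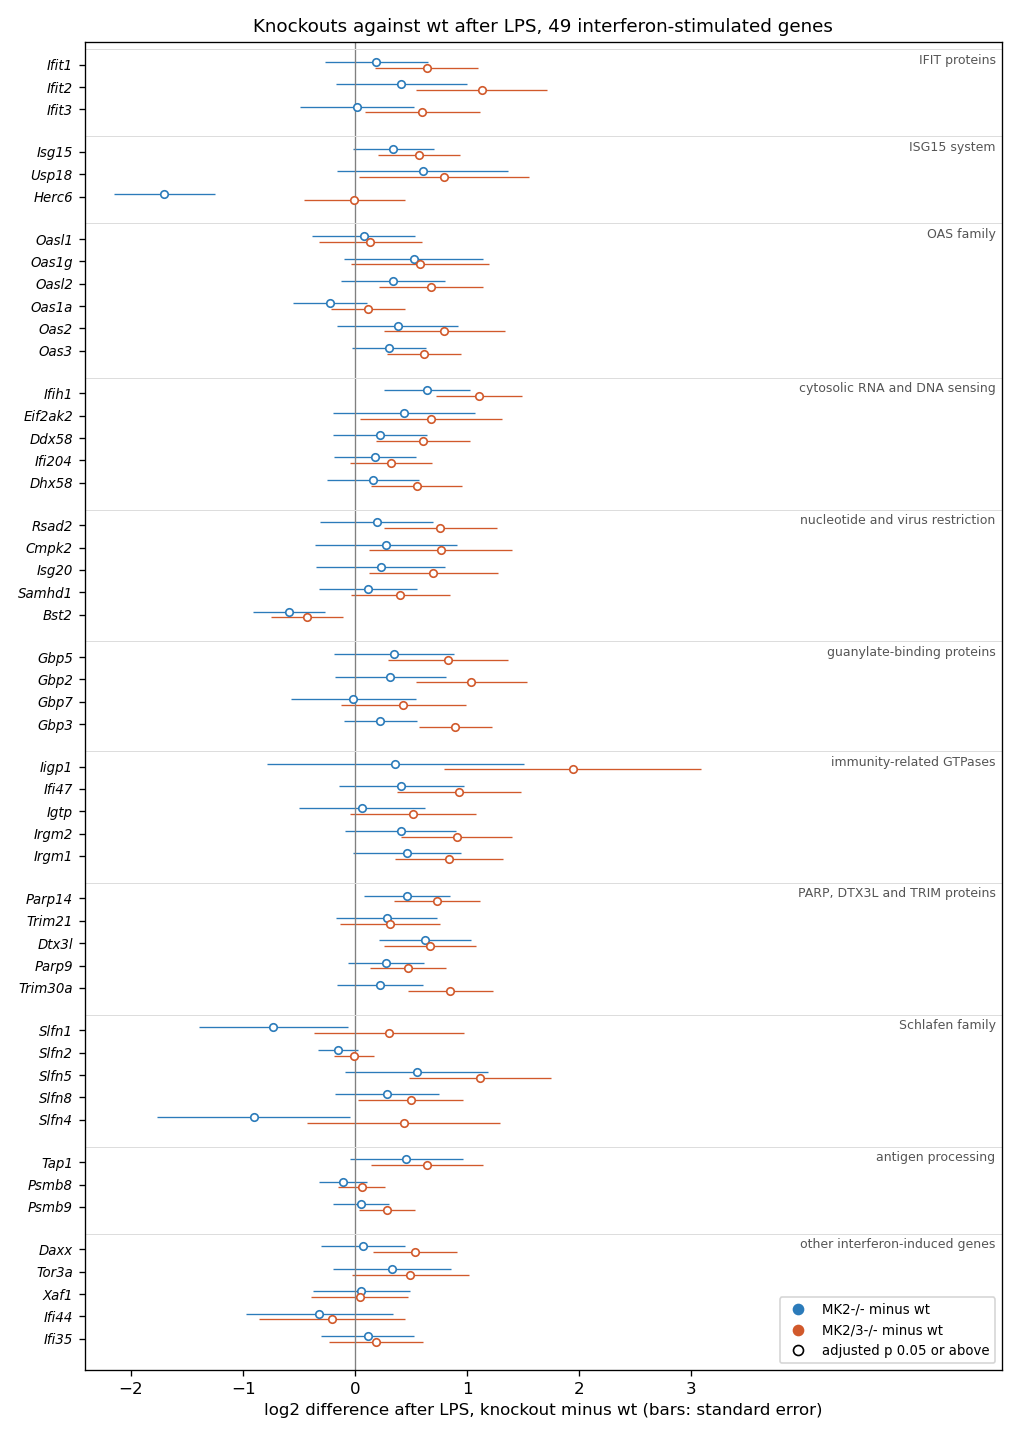
Differences between each knockout and wt after LPS for the 49 interferon-stimulated genes, by role. The x axis is the log2 difference, blue points are MK2-/- minus wt, orange points are MK2/3-/- minus wt, bars are standard errors, and open points have an adjusted p of 0.05 or above. All points are open, 45 of the orange points lie above 0, and Herc6 in MK2-/- lies farthest below 0, at −1.70.

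In medium the genotypes were compared in the same way. In MK2-/- against wt, 0 of 49 passed against 0.00754% of all genes. Bst2 alone of the 49 had an unadjusted p under 0.05, beside 3.4% of all genes. It was 0.77 log2 units lower (−0.77) in MK2-/-, which ran from −1.15 without replicate 3 to −0.45 without replicate 1 of MK2-/- medium. In MK2/3-/- against wt and against MK2-/-, 0 of 49 passed against 0.0792% and 0.0453% of all genes. In both, 0 of 49 had an unadjusted p under 0.05, beside 4.66% and 3.62% of all genes. The LPS responses themselves were compared as interactions. For MK2-/- against wt, MK2/3-/- against wt and MK2/3-/- against MK2-/-, 0 of 49 passed against 0.00377%, 0.0113% and 0% of all genes. In each, 0 of 49 had an unadjusted p under 0.05, beside 1.92%, 4.55% and 2.89% of all genes. The median interaction was 0.07, 0.44 and 0.38 log2 units in this order, and −0.28, 0.02 and 0.38 without replicate 4 of wt LPS. That removal kept the wt medium array of culture e and the e arrays of both knockouts, so the values against wt shift downward.

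The pathway that leads to these genes was followed with 23 further genes. With LPS, 12 of the 23 rose in wt, 12 in MK2-/- and 16 in MK2/3-/-, beside 8.16%, 8.41% and 11.9% of all genes, and Ptpn6, a phosphatase that limits cytokine signalling, fell in MK2-/- by 0.52 log2 units. In the genotype comparisons and interactions 0 of the 23 passed (limma), where the share of all genes was 1.64% or less.

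Of the ligands, Ifnb1 had the largest LPS difference. It read 1.95, 2.23, 1.98 and 2.16 in wt medium, not well above background, and 14.58, 15.54, 14.10 and 15.26 after LPS, a rise of at least 2772-fold. In MK2-/- it read 2.14, 2.20 and 2.26 in medium, again not well above background, and 12.22, 13.08, 12.56 and 14.75 after LPS, a rise of at least 773-fold. Ifnb1 in MK2/3-/- read 3.09, 2.64, 1.94 and 2.05 in medium, with 1 of 4 arrays above background, and 13.46, 13.44, 13.13 and 14.76 after LPS (11.26 ± 0.45 log2 units).

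After LPS Ifnb1 was 1.72 ± 0.45 log2 units below wt in MK2-/- (limma adjusted p = 0.34, exact permutation p = 0.0857) and 1.18 ± 0.45 below wt in MK2/3-/- (limma adjusted p = 0.24). Its order of means was thus MK2-/-, MK2/3-/-, wt, while 39 of the 49 interferon-stimulated genes had wt lowest and MK2/3-/- highest. The place of wt below MK2-/- varied between cultures. Arrays of the same letter had MK2-/- above wt for 42, 20, 12 and 45 of the 49 genes in a, b, c and e. Without replicate 4 of wt LPS, 8 of 49 were higher in MK2-/- than in wt, with the low e arrays of the knockouts kept. Replicate 4 was the highest Ifnb1 array of both knockouts and overlapped wt, and without it in MK2-/- the difference from wt was −2.25 with a limma adjusted p of 0.029. That culture, e, was the one with the lowest levels of most of the 49 genes. Ifna1 rose by 1.49, 1.46 and 1.42 log2 units in wt, MK2-/- and MK2/3-/-.

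Among the receptor-activated factors, Irf1 was not well above background on any medium array and rose at least 18.3-fold in wt, at least 23.6-fold in MK2-/- and at least 31.9-fold in MK2/3-/-. Irf9 differed by 0.32, 0.33 and 0.36 and passed in none. Irf7, the factor that amplifies interferon transcription, read 10.53, 11.62, 13.93 and 11.65 in wt medium and 12.14, 13.29, 13.58 and 11.17 after LPS, with overlapping groups and differences of 0.61, 1.16 and 1.29 that did not pass. The wt medium array of replicate 3, highest for Irf7, was also the highest wt medium array for Bst2. Of the inhibitors, Socs1 rose by 7.48, 7.11 and 8.38 log2 units and Socs3 by 7.85, 7.28 and 7.72, and Socs1 after LPS was 1.30 ± 0.50 above wt in MK2/3-/- (limma adjusted p = 0.23).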

How the data were processed

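RNA of 23 macrophage samples was read on one-colour Agilent arrays of design build mm9. The authors extracted spot intensity values with Agilent Feature Extraction 11.0.1.1, which subtracts the local background and detrends each array, and they deposited these intensity files together with a table of log2 values, quantile normalized and set relative to the probe median in GeneSpring. The deposited log2 values correlated with the values computed here at r = 0.999942 and served as an alternative.

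Here the processed signals were taken to log2 after outlier-marked spots were left out (258 probe values missing; no spot was saturated), replicate spots were averaged, and the 23 arrays were brought to common quantiles with limma 3.58.1 in R 4.3.3 (data.table version 1.17.8). Of 55681 probes, those with a RefSeq accession were named through the gene names of RefSeq, by which 20887 of 26512 genes had a symbol and 5625 stayed under their accession. As in the study's methods, a gene with several probes was read from the one most induced by LPS in wt, which favours high LPS differences in wt; 34 of the 49 genes had 1 probe and 15 had several. One limma fit of 6 groups gave all comparisons, with Benjamini-Hochberg adjustment over all 26512 genes and a threshold of 0.05. Single genes also had an exact two-sided permutation test. The number of arrays limits the precision. The script was tested on simulated data. Where no array of a group read a probe well above background, the fold is a lower bound against the lowest such signal of each array.

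Every gene of the list is named; all array values are given for the gene with the largest wt LPS difference of each role, for the 2 with the smallest, for Ifnb1 and, in wt, Irf7, and, chosen after their values were seen, for Herc6 and, after LPS, Gbp3. Results of some genes are not reported here. The genes and lists were chosen with earlier results of these data known. The alternatives were 75th percentile scaling, normexp background correction with an offset of 50, the values as deposited, the mean over probes, a filter on dim probes, a floor of 5, the culture as a block, separate fits, the methods' t-test and each array left out. After the data were seen, the culture letter as a fixed block and the removal of 2 MK2/3-/- medium arrays were added. Promoters came from RefSeq (GRCm38.p6). Figures were drawn with matplotlib 3.10.9 in Python 3.11.15.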

Additional observations from a re-analysis of the deposited data

Results flagged for a closer look

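In 119 groups of 4 arrays, Dixon's test for 1 stray value marked 3, fewer than the share of about 5% that chance gives. Gbp3 was 9.9 log2 units in replicate 1 of wt medium, and the other arrays of the group lay between 10.8 and 10.95. Bst2 was 14.22 in replicate 4 of MK2/3-/- LPS, where the others lay between 14.74 and 14.81. Mapkapk2 was 12.26 in the same array, where the others lay between 11.54 and 11.65.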

How the results depend on the processing

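Letting each alternative change 1 choice, the number of genes raised by LPS lay between 25 (the methods' t-test) and 42 (letter of the culture as a block) in wt, 29 and 41 in MK2-/- and 32 and 45 in MK2/3-/-, all within 1.5 times the main counts. With the culture as a replicate block (consensus correlation 0.239) it was 39, 37 and 45. Medium and LPS arrays of a culture deviated together past r = 0.1 in 10 of 11 pairs over all genes (0.0626 to 0.561) and in 11 of 11 over the 12735 genes above background on all arrays (0.360 to 0.774), against 3 of 33 other pairs; as 1 pair missed it over all genes, the fit without the block was kept. Leaving out 1 array gave 31 to 40 in wt, 31 to 37 in MK2-/- and 33 to 46 in MK2/3-/-. In the genotype comparisons and interactions, counts stayed at 0 under every alternative and with any array left out, except MK2/3-/- against MK2-/- after LPS, which ran from 0 to 1 with an array left out (Herc6, without replicate 4 of MK2/3-/- LPS) and was 1 with the letter as a replicate block (Herc6 again). No interaction was computed for the t-test.

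The LPS difference of Bst2 turned in sign: in MK2-/- to −0.0915 with the letter as a block, −0.0175 without LPS replicate 3, and −0.255 and −0.0162 without medium replicates 1 and 2, within a range of −0.255 to 0.441 with any array left out; in MK2/3-/- to 0.151 and in wt to 0.249 under 75th percentile scaling, and in wt to 0.0232 without LPS replicate 1 and 0.192 without medium replicate 3 (range −0.371 to 0.192). Oas3 in wt turned to −0.00517 without LPS replicate 2 (range −0.00517 to 0.510). The cause was not tested. Slfn1 in MK2-/- fell to 0.82 (adjusted p = 0.084) under normexp, and by the t-test Iigp1 and Slfn1 in wt had adjusted p-values of 0.079 and 0.051. Signals near background limit Iigp1, Slfn1 and Slfn4.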
